A study of Mus musculus with 2 samples.

Results

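The chemokine gene Cxcl12 and the genes of its receptors, Cxcr4 and Ackr3, are described across the cell classes of 4T1 mammary tumours. They were picked by symbol and are 3 of the 32285 genes in the count matrix. RNA of single cells was counted in 2 droplet libraries, 1 for each group. The K2-KO library came from tumours grown from 4T1 cells given a K2 sgRNA, which the series title gives as Kindlin-2, the integrin-activating adaptor encoded by Fermt2. The control library came from tumours of 4T1 cells given a Ctrl sgRNA, with genotype WT. 4T1 cells are a line from a mouse mammary carcinoma, labelled TNBC (triple-negative breast cancer), and only the injected tumour cells carried the sgRNA, so fibroblasts, vessels and immune cells were the host's own in both groups. Cells were injected into the mammary fat pad of female BALB/c mice (spelled BLB/c in the design text), and tumours were taken at 150 mm3, digested for 45 min and sorted live by whether cells carried mCherry. How many tumours were pooled, and which sorted cells were loaded in what proportion, is not given in the sources used here.

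CXCL12 is a small secreted chemokine made mainly by fibroblasts, pericytes, endothelial cells and bone marrow stroma. It binds CXCR4, a G protein-coupled receptor through which leukocytes migrate towards the chemokine and are held near it. ACKR3, also called CXCR7, binds CXCL12 too, but does not couple to G proteins in the usual way and takes the chemokine into the cell, which lowers its level outside. In mammary tumours, CXCL12 from carcinoma-associated fibroblasts is known as a signal for tumour cells, blood vessel growth and the placing of T cells. These RNA counts measure none of those functions.

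After filtering, 6761 cells of the K2-KO library and 7530 cells of the control library remained, with medians of 15987 and 22213 UMIs (unique molecular identifiers, each standing for 1 captured RNA molecule). Fermt2, the targeted gene, stood at 16.7 CPM (UMIs per 1000000) in the tumour gate of the K2-KO library and at 38.7 CPM in that of the control library. The libraries shared 13 cell barcodes. Which barcode suffix is which library was taken from the sample numbers in the labels alone. A cell was placed in a class when it passed 1 gate and no other: at least 10 Col1a1 UMIs without Ptprc for fibroblasts, 2 Pecam1 UMIs without Ptprc for endothelial cells, 3 Epcam UMIs for tumour cells, 3 C1qa for macrophages, 5 S100a8 for neutrophils, 2 Cd3e for T cells, 1 Ncr1 for NK cells and 2 Siglech for plasmacytoid dendritic cells. These gates took 66.6% of K2-KO cells and 71.8% of control cells. Marker sums, each with its gate gene included, were highest in the gate of their name but not confined to it. The 5 T cell markers (Cd3e, Cd3d, Cd3g, Trac and Trbc2) summed to 3273 CPM in the K2-KO T cell gate and 3624 CPM in the control. They summed to 4.43 and 2.06 CPM in the macrophage gates, but to 269.6 and 254.7 CPM in the NK cell gates. The 6 fibroblast markers summed to 3527 CPM in the K2-KO neutrophil gate and 2162 CPM in the control plasmacytoid dendritic cell gate. With 1 library per group there is no replicate and no test. Each interval is an exact 95% interval that covers counting error only, and every difference is one between these libraries.

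All 3 genes are protein-coding. In mm10, Cxcl12 (ENSMUSG00000061353) lies on the plus strand of chromosome 6 at 117168535 to 117181367. Cxcr4 (ENSMUSG00000045382) is on chromosome 1, minus strand, 128588199 to 128592293, and Ackr3 (ENSMUSG00000044337) on chromosome 1, plus strand, 90203980 to 90216751. The 250 bases before each RefSeq start (GRCm38.p6) are shown because the ligand gene and Ackr3 were both higher in the fibroblast gate of the K2-KO library, while Cxcr4 was nearly silent there. Capitals mark GC boxes (GGGCGG, or CCGCCC on the other strand), TATA boxes (TATAAA or its reverse complement) and CCAAT boxes, each searched on both strands. They are written 5′ to 3′ along the gene, at chr6:117168285-117168534 (plus strand), chr1:128592300-128592549 (minus strand) and chr1:90203730-90203979 (plus strand).
Cxcl12: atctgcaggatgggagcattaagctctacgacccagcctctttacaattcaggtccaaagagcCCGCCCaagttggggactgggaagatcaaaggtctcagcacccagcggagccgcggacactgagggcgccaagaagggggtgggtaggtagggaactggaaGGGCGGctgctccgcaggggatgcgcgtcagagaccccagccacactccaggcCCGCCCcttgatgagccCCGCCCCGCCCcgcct
Cxcr4: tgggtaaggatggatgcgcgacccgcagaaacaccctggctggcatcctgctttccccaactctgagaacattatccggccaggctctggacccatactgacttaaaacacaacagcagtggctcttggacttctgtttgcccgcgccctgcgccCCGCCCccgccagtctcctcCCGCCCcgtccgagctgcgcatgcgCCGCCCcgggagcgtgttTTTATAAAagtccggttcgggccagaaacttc
Ackr3: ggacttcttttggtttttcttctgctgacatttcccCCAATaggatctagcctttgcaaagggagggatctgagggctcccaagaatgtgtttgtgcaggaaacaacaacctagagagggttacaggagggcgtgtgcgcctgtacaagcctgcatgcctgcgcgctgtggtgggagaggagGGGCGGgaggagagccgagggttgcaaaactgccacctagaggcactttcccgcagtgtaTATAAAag
GC boxes numbered 5 for Cxcl12, 3 for Cxcr4 and 1 for Ackr3, and 32.7% of 32851 RefSeq promoters held at least 1 in the same window. A TATA box was found 2 times for Cxcr4, where both matches overlap, once for Ackr3 at 8 bases before the start, and not for Cxcl12, against 12.4% of promoters with one. The CCAAT box was found for Ackr3 alone of the 3, against 33.8% of promoters. Neither the E-box CACGTG nor the hypoxia response core ACGTG was found in any of the 3 windows, and 6.02% and 16.6% of promoters held them. A match is a run of letters and not a site shown to be bound.

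The fibroblast gate held more Cxcl12 UMIs than any other gate in both libraries. Of all Cxcl12 UMIs, 72.1% (70.2% to 74.0%) of 2197 in the K2-KO library and 45.3% (42.2% to 48.4%) of 1014 in the control library lay in the Col1a1 gate, which held 77 and 79 cells. The Pecam1 gate held 1.82% in the K2-KO library and 21.0% in the control. Cells that passed several gates held 12.6% in the K2-KO library and 23.5% in the control, and the T cell gate 9.10% and 6.41%. Of the 277 K2-KO UMIs in cells that passed several gates, 273 were in the 15 cells whose gates included Col1a1. Of the 238 control UMIs in such cells, 220 were in the 18 whose gates included Col1a1. With every cell that passed the Col1a1 gate counted, the shares were 84.5% in the K2-KO library and 67.0% in the control.

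**Figure D1:**
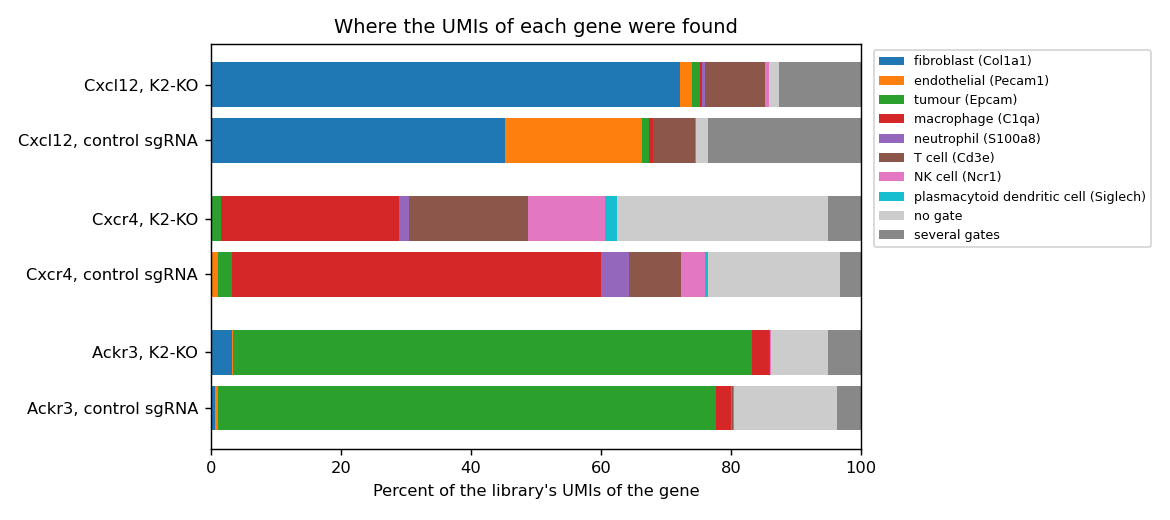
Share of each gene's UMIs by cell class and library, as percent of all UMIs of that gene in the filtered cells of the library. The Col1a1 gate held 72.1% of Cxcl12 UMIs in the K2-KO library and 45.3% in the control, the C1qa gate 27.3% and 56.7% of Cxcr4 UMIs, and the Epcam gate 79.9% and 76.6% of Ackr3 UMIs.

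Within the fibroblast gate, Cxcl12 was higher in the K2-KO library. It stood at 510.0 CPM (485 to 536; 1584 UMIs) in the K2-KO library and 194 CPM (177 to 213; 459 UMIs) in the control, a log2 ratio of 1.39 (1.24 to 1.55), or 2.63-fold. Of the 10870 genes measured in this gate, 14.1% were at least 1.5-fold higher in the K2-KO library and 6.95% at least 1.5-fold lower, and 2.70% had a ratio at least as high as Cxcl12. A Cxcl12 UMI was found in 60 of 77 K2-KO cells (77.9%) and in 46 of 79 control cells (58.2%), at median depths of 39409 and 28687 UMIs per cell. Thinned to 1500 UMIs, with 1 shallower control cell left out, the shares were 37.1% in the K2-KO library and 19.7% in the control. In the Epcam gate, where a median cell had 42508 UMIs in the K2-KO library and 38182 in the control, 0.714% and 0.345% of cells had a Cxcl12 UMI before thinning.

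The cells of the fibroblast gate differed widely among themselves. In the K2-KO library, Cxcl12 ran from 0 in the lowest cell to 4593 CPM in the highest, with a median of 240.1 CPM. In the control library it ran from 0 to 3425 CPM, with a median of 39.8 CPM. The ranges overlapped, and the K2-KO median was above the control's upper quartile of 219 CPM. The 5 cells with most Cxcl12 held 39.0% of the gate's UMIs in the K2-KO library and 57.7% in the control, so the interval of the sums is narrower than the spread between cells. Without those 5 cells in each library, an alternative chosen after the data were seen, the log2 ratio was 1.93.

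**Figure D2:**
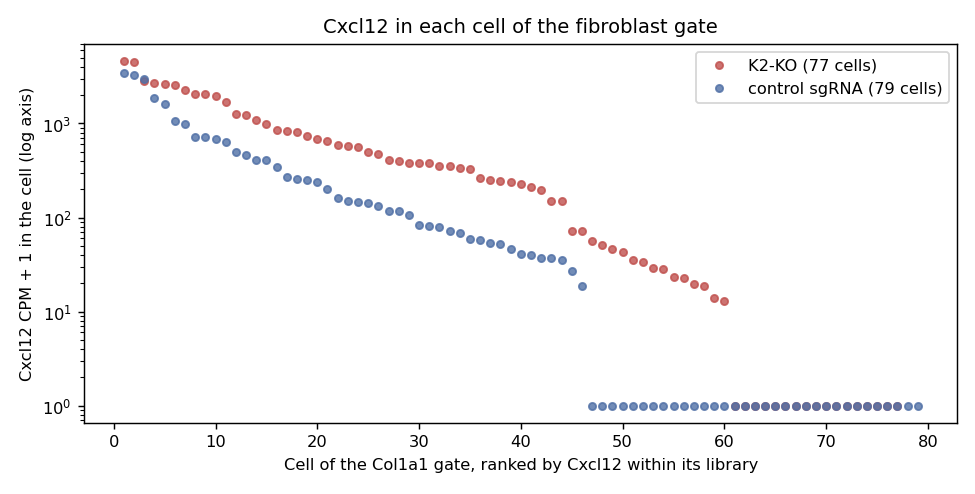
Cxcl12 in each cell of the Col1a1 gate, as CPM plus 1 on a log axis, with cells ranked from highest to lowest within their library (77 K2-KO cells, 79 control cells). Cells at 1 had no Cxcl12 UMI (17 in the K2-KO library, 33 in the control), and K2-KO cells lay above control cells of the same rank at every rank where either had a UMI except rank 3.

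The mix of fibroblasts differed between the libraries. Cells with at least 3 UMIs of Acta2, the smooth muscle actin gene that marks myofibroblasts and pericytes, made up 38 of 77 K2-KO cells (49.4%) and 51 of 79 control cells (64.6%). Cxcl12 was lower in them than in the cells with less Acta2 in both libraries, with log2 ratios of -2.34 (-2.51 to -2.18) in the K2-KO library and -3.73 (-4.07 to -3.41) in the control. Cells with fewer than 3 Acta2 UMIs held 75.9% of the gate's Cxcl12 UMIs in the K2-KO library and 78.0% in the control. Cxcl12 was thus measured mainly in a subset of 39 K2-KO cells and 28 control cells. That subset was shallower, with medians of 26203 UMIs per cell in the K2-KO library and 13043.5 in the control. The cells with at least 3 Acta2 UMIs had medians of 48248.5 and 35049 UMIs. The part of depth in this split was not tested.

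Compared within each subset, Cxcl12 was higher in the K2-KO library in both. Among cells with at least 3 Acta2 UMIs it was at 199 CPM in the K2-KO library and 54.1 CPM in the control, a log2 ratio of 1.88 (1.56 to 2.21). Among cells with fewer it was at 1011 CPM in the K2-KO library and 719 CPM in the control, a ratio of 0.49 (0.32 to 0.67), under 1.5-fold. With both subsets weighted equally, an alternative chosen after the data were seen, the ratio of the gate was 0.65. The 5 pericyte or smooth muscle markers summed to 1658 CPM in the K2-KO gate and 2631 CPM in the control gate. Without cells that held at least 5 UMIs of the pericyte gene Rgs5, Cxcl12 stood at 527 CPM in 72 K2-KO cells and 211 CPM in 70 control cells, a ratio of 1.32 (1.17 to 1.47). In cells with a UMI of Pdgfra, a receptor gene of fibroblasts, it was at 549 CPM in the K2-KO library and 215 CPM in the control.

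Endothelial cells were the other gate with a high Cxcl12 level, and there it was lower in the K2-KO library. Cxcl12 stood at 95.8 CPM (68.4 to 130.4; 40 UMIs) in 34 K2-KO cells and at 189.7 CPM (165.0 to 217; 213 UMIs) in 49 control cells. The log2 ratio was -0.99 (-1.51 to -0.49), in a gate where 21.7% of genes were at least 1.5-fold lower and 16.2% at least 1.5-fold higher in the K2-KO library. Only 4 K2-KO cells held a Cxcl12 UMI, against 16 control cells, and 1 cell held 47.5% of the UMIs in the K2-KO library and 34.3% in the control. The median cell of the gate had 8695 UMIs in the K2-KO library and 14759 in the control. Markers of other cells differed in it too. The 6 fibroblast markers summed to 19.2 CPM in the K2-KO library, with Col1a2, Dcn and Lum at 0, and to 47.2 CPM in the control, with Dcn and Lum at 0. The 5 pericyte or smooth muscle markers summed to 9.58 CPM in the K2-KO library, with Rgs5, Cspg4 and Notch3 at 0, and to 98.8 CPM in the control, with none at 0. The 6 macrophage markers summed to 390.3 CPM in the K2-KO library, with C1qc at 0, and to 85.5 CPM in the control, with none at 0. Most of these sums was 1 marker, Apoe, at 359 CPM in the K2-KO library and 68.6 CPM in the control. C1qa was at 9.58 CPM in the K2-KO library and 4.45 CPM in the control. The part of those other cells and of depth in the Cxcl12 difference was not tested. In the control library the levels of the fibroblast and endothelial gates had overlapping intervals, and in the K2-KO library they did not.

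Other gates held little Cxcl12, or held it in single cells. In the T cell gate it was at 31.2 CPM in the K2-KO library and 17.02 CPM in the control, but 1 K2-KO cell held all 200 UMIs and 1 control cell 63 of 65. Cells with at least 10 Col1a1 UMIs held 200 of the 200 K2-KO UMIs and 64 of the 65 control UMIs of that gate. In the neutrophil gate, 1 such K2-KO cell held all 13 UMIs, and the control had 0 in 466 cells, which allows up to 2.16 CPM. The NK cell gate had 14 UMIs in the K2-KO library, 11 of them in 1 such cell, and 0 in 112 control cells, which allows up to 3.54 CPM.

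Tumour cells and macrophages had few Cxcl12 UMIs. In the Epcam gate it was at 0.280 CPM (28 UMIs) in the K2-KO library and 0.0857 CPM (11 UMIs) in the control, a log2 ratio of 1.71 (0.66 to 2.86). In this gate 19.3% of genes were at least 1.5-fold higher and 6.12% at least 1.5-fold lower in the K2-KO library. Col1a1 in the same cells was at 3.43 CPM in the K2-KO library and 1.72 CPM in the control. If all of it had come from the fibroblast gate, Cxcl12 would have come along at 0.226 CPM in the K2-KO library and 0.0420 CPM in the control, and by Dcn at 2.51 and 0.939 CPM. In the macrophage gate, Cxcl12 had 6 UMIs in the K2-KO library and 7 in the control. The part of free RNA in these levels was not tested. In the Epcam gate, 1 K2-KO cell with at least 10 Col1a1 UMIs held 8 of the 28. Krt5 is a gene of basal mammary gland cells, and Wfdc18 a gene of normal mammary gland. Cells with at least 3 Krt5 UMIs and fewer than 10 Wfdc18 UMIs held 3 UMIs in 20 K2-KO cells (3.99 CPM). In the control, 11 such cells held 4 of the 11 UMIs (16.4 CPM). Cells with at least 5 UMIs of Top2a, a gene of dividing cells, held 19 UMIs in 625 K2-KO cells and 4 in 572 control cells. Of those 19, 42.1% were in 1 cell. Cells with Lcn2 and little Ibsp held 10 UMIs in 639 K2-KO cells and 4 in 962 control cells. Cells with Ibsp held 4 in 121 K2-KO cells and 5 in 1191 control cells. These kinds can share cells. The remaining tumour cells, low in every subset gene used, held 0 UMIs in 615 K2-KO cells and 1 in 474 control cells.

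**Figure D3:**
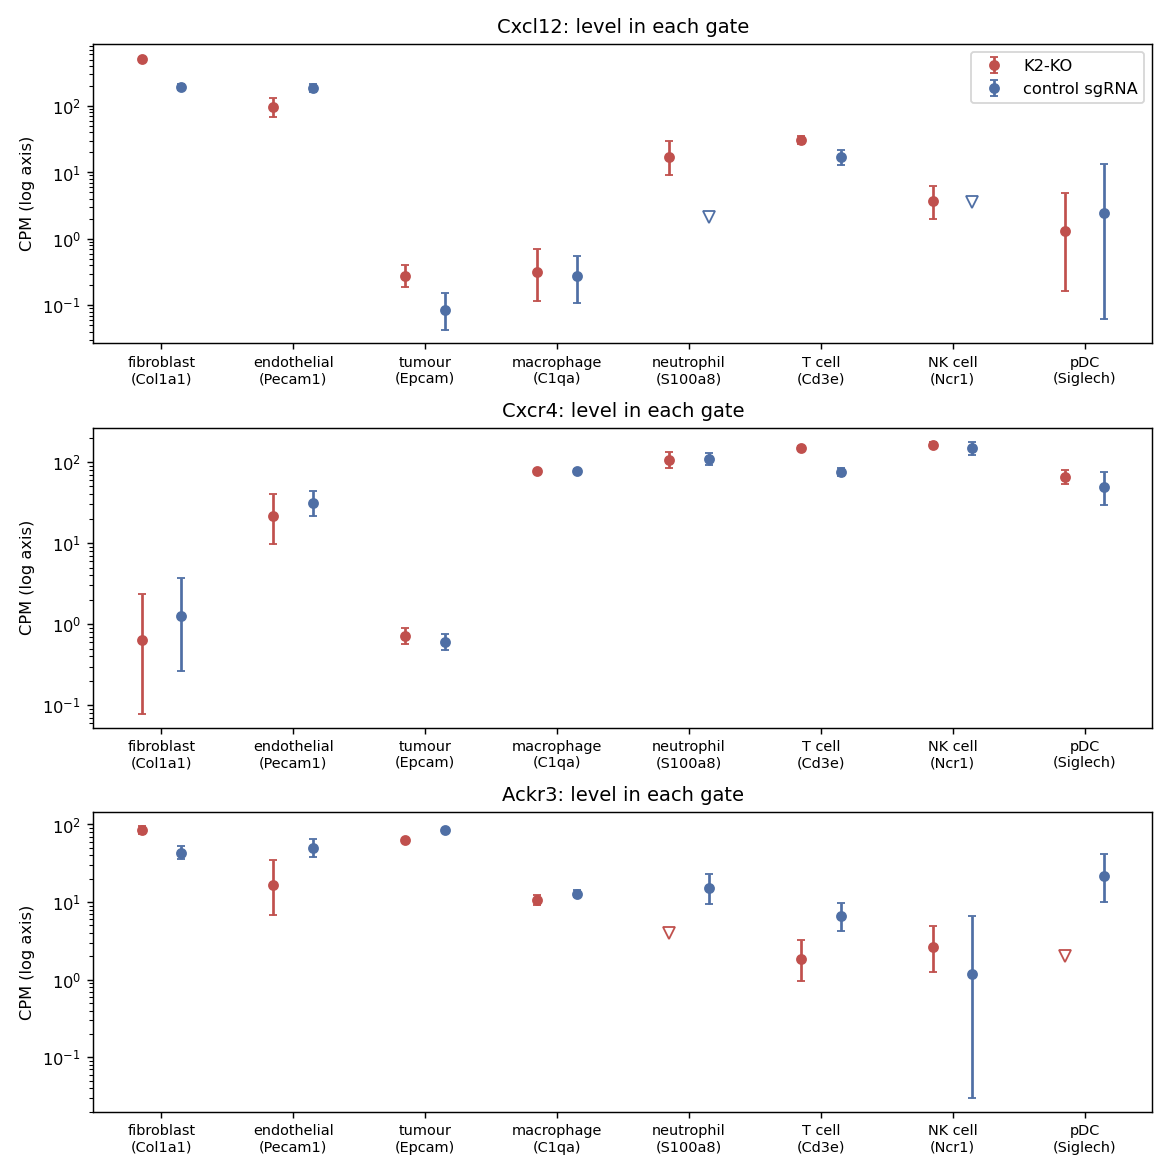
Level of each gene in each gate and library, in CPM on a log axis. Points are CPM of the summed UMIs with exact 95% Poisson intervals (counting error only), and open triangles mark the limit that 0 UMIs allow; Cxcl12 is highest in the fibroblast gate, with an overlapping interval in endothelial cells of the control, Cxcr4 is highest in leukocyte gates, and Ackr3 in the fibroblast gate of the K2-KO library and the tumour gate of the control.

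Cxcr4, the signalling receptor, was found in every leukocyte gate and was close to 0 in tumour cells and fibroblasts. In the K2-KO library the order was NK cells at 165 CPM, T cells at 150.1 CPM, neutrophils at 106 CPM, macrophages at 76.5 CPM, plasmacytoid dendritic cells at 65.4 CPM and endothelial cells at 21.6 CPM. The intervals of NK and T cells overlapped, and so did those of macrophages and plasmacytoid dendritic cells. In the control library it was NK cells at 149 CPM, neutrophils at 110.0 CPM, macrophages at 78.2 CPM, T cells at 75.4 CPM, plasmacytoid dendritic cells at 48.9 CPM and endothelial cells at 31.2 CPM. There, each gate overlapped its neighbour except that neutrophils lay above macrophages. Macrophages thus stood below T cells in the K2-KO library and beside them in the control.

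Among the leukocyte gates, Cxcr4 differed most in T cells. It was at 150.1 CPM (141 to 160; 961 UMIs) in 623 K2-KO cells and at 75.4 CPM (67.0 to 84.6; 288 UMIs) in 379 control cells, a log2 ratio of 0.99 (0.80 to 1.19). In this gate 8.95% of genes were at least 1.5-fold higher and 9.21% at least 1.5-fold lower in the K2-KO library, and 3.56% had a ratio at least as high as Cxcr4. A Cxcr4 UMI was found in 50.9% of K2-KO T cells and 31.4% of control T cells, at median depths of 8045 and 7938 UMIs. Thinned to 1500 UMIs the shares were 21.6% in the K2-KO library and 12.6% in the control, and in the tumour gate, which had almost no Cxcr4, 0.165% and 0.136%. The median T cell stood at 31.3 CPM in the K2-KO library and at 0 in the control.

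The T cells differed in kind between the libraries. Cells with Cd8a, the co-receptor gene of cytotoxic T cells, and without Cd4 or Foxp3 made up 26.6% of the gate in the K2-KO library and 42.0% in the control. Cells with Cd4 alone made up 22.8% in the K2-KO library and 9.76% in the control, and cells with Foxp3, the factor of regulatory T cells, 26.5% and 16.9%. Cxcr4 was lower in the Cd8a cells than in the Cd4 cells of the same library, by a log2 ratio of -1.35 (-1.68 to -1.02) in the K2-KO library and -2.61 (-3.34 to -1.86) in the control.

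Within the subsets, the Cd8a cells differed most between the libraries. They had 63.5 CPM of Cxcr4 (53.1 to 75.4; 166 cells) in the K2-KO library and 18.1 CPM (38 UMIs; 159 cells) in the control, a log2 ratio of 1.81 (1.28 to 2.37). The Cd4 cells had 162 CPM in the K2-KO library and 110.4 CPM in the control, a ratio of 0.55 whose interval (-0.02 to 1.16) includes 0. The Foxp3 cells had 173 CPM in the K2-KO library and 142 CPM in the control (0.28, -0.06 to 0.64). T cells with none of the 3 genes had 260.3 CPM in the K2-KO library and 198 CPM in the control (0.40, 0.09 to 0.71). With the 4 subsets weighted equally, chosen after the data were seen, the log2 ratio of the gate was 0.61.

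**Figure D4:**
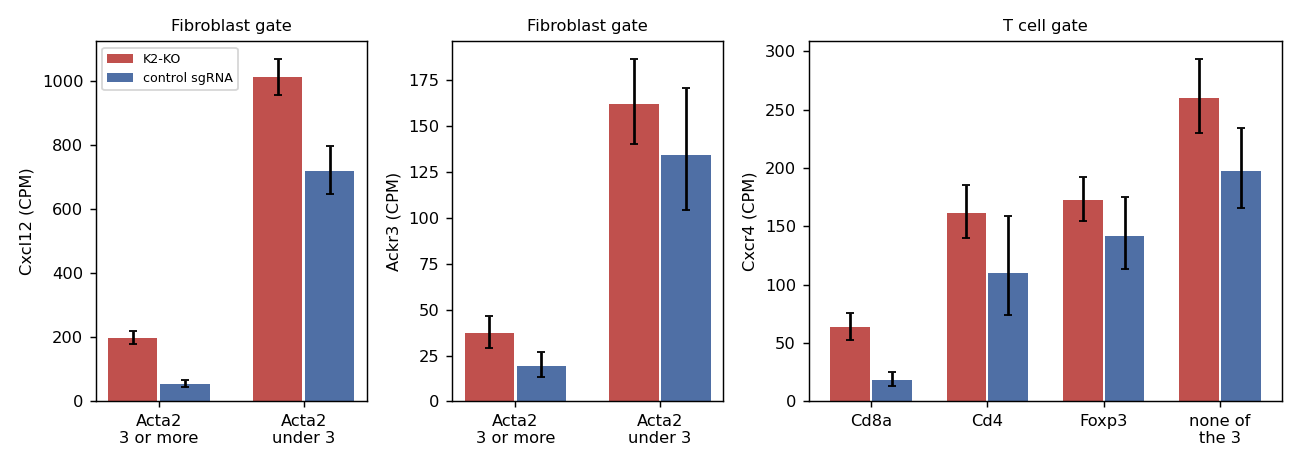
Cxcl12 and Ackr3 in cells of the fibroblast gate with at least 3 or fewer than 3 Acta2 UMIs, and Cxcr4 in 4 kinds of T cell, in CPM with exact 95% Poisson intervals (counting error only). Bars of the K2-KO library stand above those of the control in every pair, among them 199 against 54.1 CPM of Cxcl12 in the Acta2 cells and 162 against 135 CPM of Ackr3 in the low-Acta2 cells.

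In the other leukocytes Cxcr4 differed little. In macrophages it was at 76.5 CPM (1434 UMIs) in the K2-KO library and 78.2 CPM (2013 UMIs) in the control, a log2 ratio of -0.03 (-0.13 to 0.07), in a gate where 10.4% of genes were at least 1.5-fold higher and 3.7% at least 1.5-fold lower. The unthinned share of macrophages with a UMI was 48.1% in the K2-KO library and 60.1% in the control, where the median cells had 16137 and 18528 UMIs, and 10.9% and 12.0% after thinning. Macrophages with at least 5 UMIs of Arg1, the arginase gene, had 74.0 CPM in the K2-KO library and 77.0 CPM in the control, and those with fewer had 83.0 and 84.6 CPM. NK cells had 165 CPM in the K2-KO library and 149 CPM in the control (0.15, -0.13 to 0.44), in a gate where 15.5% of genes were at least 1.5-fold higher and 6.62% lower. Neutrophils had 106 CPM in the K2-KO library and 110.0 CPM in the control (-0.05, -0.46 to 0.35), where 31.9% of genes were at least 1.5-fold higher and 14.7% lower. Plasmacytoid dendritic cells had 65.4 CPM in 112 K2-KO cells and 48.9 CPM in 26 control cells (0.42, -0.29 to 1.19), where 12.8% of genes were at least 1.5-fold higher and 16.4% lower.

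Although most levels were alike, the make-up of the cells that carried Cxcr4 differed. Macrophages held 27.3% of all Cxcr4 UMIs in the K2-KO library and 56.7% in the control. T cells held 18.3% in the K2-KO library and 8.11% in the control, NK cells 11.9% and 3.55%, and ungated cells 32.4% and 20.3%. The gates held 623 and 379 T cells and 415 and 112 NK cells, and the sort on mCherry can set these shares.

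Ungated cells were a mixture that differed between the libraries, and Cxcr4 in them stood at 64.8 CPM in the K2-KO library and 22.8 CPM in the control (1.51, 1.38 to 1.63). The ungated cells with at least 3 UMIs of Ly6c2, a monocyte gene, numbered 319 in the K2-KO library and 107 in the control and had 157 and 189 CPM of Cxcr4. Ungated cells with Trac, a T cell receptor gene, were taken if they had under 3 Ly6c2, 2 Flt3 and 10 Krt8 UMIs. They had 240.2 CPM in 178 K2-KO cells and 116 CPM in 105 control cells (1.06, 0.69 to 1.43). Cells with at least 2 UMIs of the B cell gene Cd79a had 348 CPM in 24 K2-KO cells and 125 CPM in 13 control cells (1.47, 0.57 to 2.48). Ungated cells with at least 10 Krt8 UMIs and no Ptprc, which have tumour cell keratin but little Epcam, numbered 338 in the K2-KO library and 701 in the control.

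Tumour cells had almost no Cxcr4. It stood at 0.720 CPM (72 UMIs) in the K2-KO library and 0.607 CPM (78 UMIs) in the control, a log2 ratio of 0.25 (-0.24 to 0.73), and 2.55% and 2.00% of cells had a UMI. Of the 72 K2-KO UMIs, 16 were in the 40 cells of the gate with at least 10 UMIs of Wfdc18, a gene of normal mammary gland, which had 12.3 CPM; 11 such control cells held 2 UMIs. The fibroblast gate had 2 UMIs in the K2-KO library and 3 in the control.

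**Figure D5:**
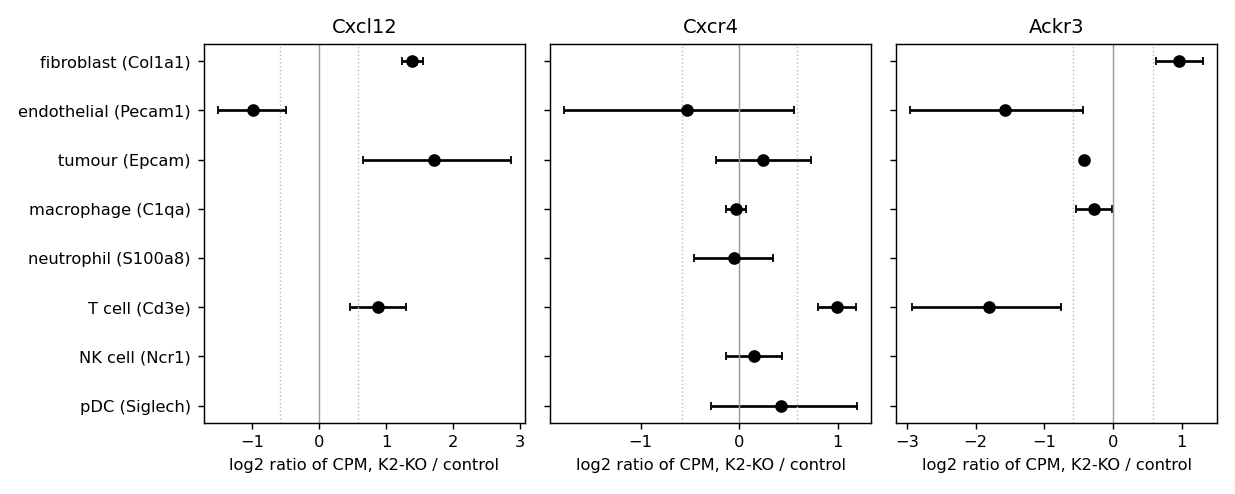
Log2 ratio of CPM, K2-KO over control, for each gene and gate with at least 20 UMIs over both libraries and UMIs in each. Bars are exact 95% intervals for counting error only and dotted lines mark 1.5-fold; Cxcl12 and Ackr3 lie right of 0 in the fibroblast gate and left of 0 in the endothelial gate, and Cxcr4 is right of 0 beyond its interval in the T cell gate alone. The Cxcl12 and Ackr3 points of the T cell gate rest on 1 or a few cells.

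Ackr3, the scavenging receptor, was found at its higher levels in tumour cells, fibroblasts and, in the control library, endothelial cells. The tumour gate held 79.9% of its 7968 UMIs in the K2-KO library and 76.6% of its 14343 UMIs in the control. There it stood at 63.6 CPM (62.1 to 65.2) in the K2-KO library and 85.5 CPM (83.9 to 87.1) in the control. That was a 1.34-fold lower level in the K2-KO library, with a log2 ratio of -0.43 (-0.47 to -0.38), while the median gene of the gate had a ratio of 0.13. A UMI was found in 63.7% of K2-KO cells and 66.9% of control cells, and in 8.02% and 11.0% after thinning. The median tumour cell stood at 30.0 CPM in the K2-KO library and 42.8 CPM in the control. Of all genes measured in the gate, 9.17% had a ratio at least as low. In T cells, where the gene is nearly absent, the thinned shares were 0.126% in the K2-KO library and 0.445% in the control.

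The difference had the same sign in every kind of tumour cell looked at, all chosen after earlier results were known. Cells with at least 5 UMIs of Ibsp had 62.1 CPM of Ackr3 in the K2-KO library and 84.7 CPM in the control. Those with Lcn2 and little Ibsp had 55.3 CPM in the K2-KO library and 80.0 CPM in the control, those with Ifit3, an interferon-induced gene, 65.1 and 85.0 CPM, and those with Top2a, a gene of dividing cells, 68.0 and 84.4 CPM. Cells low in all of these genes, and in Wfdc18 and Krt5, had 64.4 CPM in the K2-KO library and 98.7 CPM in the control. That was the widest gap of these kinds, at a log2 ratio of -0.62 (-0.72 to -0.51). Ungated cells with Krt8 had 46.0 CPM in the K2-KO library and 75.9 CPM in the control (-0.72, -0.87 to -0.58). The Wfdc18 cells had lower levels, 18.5 CPM in the K2-KO library and 20.2 CPM in the control, with a ratio whose interval (-1.24 to 1.10) includes 0. The Krt5 cells with little Wfdc18 had 43.9 CPM in the K2-KO library and 45.1 CPM in the control. Their ratio of -0.04 has an interval (-1.06 to 1.09) that includes 0 as well.

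In the fibroblast gate Ackr3 was higher in the K2-KO library when UMIs were summed. It stood at 85.0 CPM (75.1 to 95.9; 264 UMIs) in the K2-KO library and 43.5 CPM (35.5 to 52.8; 103 UMIs) in the control, a log2 ratio of 0.97 (0.63 to 1.31). The difference was smaller by other summaries: 0.33 with cells weighted equally, 0.31 with cells thinned to 1500 UMIs, and 0.37 with the Acta2 subsets weighted equally. Thinned shares of cells with a UMI were 10.7% in the K2-KO library and 8.36% in the control. As for Cxcl12, cells with at least 3 Acta2 UMIs had less Ackr3 in both libraries, 37.0 CPM in the K2-KO library and 19.3 CPM in the control, than those with fewer, at 162 and 135 CPM. In the cells with fewer the ratio was 0.27 and its interval (-0.14 to 0.69) includes 0.

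Ligand and scavenger were often found in the same fibroblasts. Of the 60 K2-KO cells with a Cxcl12 UMI, 35 also had an Ackr3 UMI, against 1 of the 17 cells without Cxcl12. In the control library it was 20 of 46 cells with Cxcl12, against 8 of 33 without. Cells with Cxcl12 were also deeper, with medians of 45331 UMIs against 23027 in the K2-KO library and 34187 against 26015 in the control, and the part of depth in this overlap was not tested.

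Endothelial cells and macrophages held some Ackr3. In the Pecam1 gate it was at 16.8 CPM (7 UMIs, 4 of them in 1 cell) in the K2-KO library and 49.9 CPM (56 UMIs in 17 cells) in the control, a log2 ratio of -1.57 (-2.95 to -0.44). The 5 tumour cell markers in that gate summed to 235 CPM in the K2-KO library and 690.1 CPM in the control. At the ratio of Ackr3 to Krt8 in the tumour gate, tumour RNA would have given 4.05 CPM of Ackr3 in the K2-KO library. In the control it would have given 12.0 CPM. At the ratio of Ackr3 to Epcam it would have given 0.927 CPM in the K2-KO library and 0.488 CPM in the control. In the C1qa gate Ackr3 was at 10.7 CPM (200 UMIs) in the K2-KO library and 12.9 CPM (332 UMIs) in the control (-0.27, -0.53 to -0.02). The same estimate there gave 1.40 CPM in the K2-KO library and 1.36 CPM in the control by Krt8. By Epcam it gave 0.427 CPM in the K2-KO library and 0.490 CPM in the control. The part of tumour RNA in the Ackr3 of these gates was not tested. Macrophages with at least 5 Arg1 UMIs had 14.2 CPM in both libraries, and those with fewer had 1.71 CPM in the K2-KO library and 6.10 CPM in the control. Arg1-high cells made up 56.7% of K2-KO macrophages and 76.0% of control macrophages. They were deeper, with medians of 21636 UMIs in the K2-KO library and 19602 in the control, against 6772 and 9140 in the others. The part of depth in the Arg1 split was not tested.

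Lymphocytes and neutrophils had little Ackr3. T cells had 12 UMIs in the K2-KO library and 25 in the control, with 9 and 12 of them in 1 cell. Neutrophils had 0 UMIs in 187 K2-KO cells, which allows up to 3.97 CPM, and 21 in 8 of 466 control cells, or 15.1 CPM. The 5 tumour cell markers in the neutrophil gate summed to 75.5 CPM in the K2-KO library and 342 CPM in the control, and their part in the Ackr3 difference was not tested. Plasmacytoid dendritic cells had 0 UMIs in the K2-KO library and 9 in the control, all 9 in 1 cell.

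Genes most like each member across the 16 gate-by-library sums were found by Pearson's r of log2(CPM + 1) over 15768 genes, as a description. For Cxcl12 these were Pcdh19 (0.94), Ppic, Dpysl3, the elastin gene Eln and the laminin gene Lama4 (0.93). For Cxcr4 they were Arhgap25 (0.98), Hcls1, the leukocyte actin-bundling gene Lcp1, the DNA sensor gene Aim2 and the PI3-kinase gene Pik3cg (0.97). For Ackr3 they included Igip (0.92), the Hedgehog signalling gene Smo, Dip2a and Gkap1 (0.91). The receptors went opposite ways across gates, with an r of -0.79 between Cxcr4 and Ackr3. Gates of 1 library share its depth, so the points are not independent.

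The other genes of the pathway were read from a list of 42 ligands, receptors, signalling proteins, regulators and factors that control Cxcr4. Ligands and their modifiers came first. In fibroblasts, Cxcl14, a chemokine reported to bind CXCR4, was at 2312 CPM in the K2-KO library and 3514 CPM in the control (-0.60, -0.65 to -0.56). Sdc4, a proteoglycan that binds CXCL12, was at 220.2 CPM in the K2-KO library and 128 CPM in the control, and the proteases Mmp14 and Mmp2, which can cut it, were at 530.0 and 498 CPM in the K2-KO library, against 743 and 399 CPM in the control. Of the 8 ligands and modifiers measured there, 1 was at least 1.5-fold higher and 1 lower, against 14.1% and 6.95% of all genes. Mif, another ligand of CXCR4, was at 1109 CPM in K2-KO tumour cells and 1138 CPM in control tumour cells. Adm, the adrenomedullin gene, whose product ACKR3 also binds, was at 33.8 CPM in K2-KO fibroblasts and 42.3 CPM in control fibroblasts. Dpp4, a peptidase that inactivates CXCL12, was at 51.7 CPM in K2-KO T cells and 46.4 CPM in control T cells.

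Among receptors and their partners, Cd74, the MHC class II chaperone that also serves as a MIF receptor, was at 8538 CPM in K2-KO macrophages and 7068 CPM in control macrophages. It was at 79.2 CPM in K2-KO fibroblasts and 16.1 CPM in control fibroblasts (a log2 ratio of 2.30), where the 6 macrophage markers summed to 55.4 and 41.9 CPM, and at 949 CPM in K2-KO neutrophils and 203 CPM in control neutrophils, where they summed to 1376 and 362 CPM. Of the neutrophil sums, 1294 CPM in the K2-KO library and 253 CPM in the control were Apoe, 1 of the 6 markers. C1qa went the other way there, at 13.2 CPM in the K2-KO library and 25.9 CPM in the control. Of the fibroblast sums, 46.4 CPM in the K2-KO library and 34.2 CPM in the control were Apoe. The part of macrophage RNA in these Cd74 values was not tested. Cxcr3, a chemokine receptor of activated T cells, was at 47.6 CPM in K2-KO T cells and 24.6 CPM in control T cells (0.95, 0.61 to 1.30). Calcrl, an adrenomedullin receptor gene, was at 4.20 CPM in K2-KO tumour cells and 1.14 CPM in control tumour cells (1.89). In T cells 3 of the 4 measured in this group were higher by 1.5-fold or more and 0 lower (8.95% and 9.21% of all genes), and in macrophages 1 of 3 higher and 0 lower (10.4% and 3.7%).

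Among the genes of G protein signalling, 0 of 11 differed by 1.5-fold or more in macrophages, where 10.4% of all genes were higher and 3.7% lower, and 0 of 11 in NK cells, where 15.5% were higher and 6.62% lower. In endothelial cells 4 of 8 were higher and 0 lower (16.2% and 21.7% of all genes). In T cells 1 of 11 was higher, against 8.95% of all genes: the kinase gene Jak2, at 454 CPM in the K2-KO library and 285 CPM in the control. In fibroblasts Elmo1, which acts with DOCK proteins on Rac, was at 36.1 CPM in the K2-KO library and 10.1 CPM in the control (1.83). In tumour cells 3 of 11 were higher and 0 lower (19.3% and 6.12% of all genes), among them Dock2 (3.46 CPM in the K2-KO library and 1.83 CPM in the control) and Elmo1 (8.50 and 4.65 CPM), at low levels.

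Genes that end receptor signalling included large differences in single members. Rgs2, which limits G protein signalling, was at 44.8 CPM in K2-KO tumour cells and 8.17 CPM in control tumour cells (2.45, 2.36 to 2.55). Rgs16, of the same family, was at 9.77 CPM in K2-KO tumour cells and 25.8 CPM in control tumour cells (-1.40). It was likewise lower in K2-KO T cells, at 159 CPM against 375 CPM in control T cells (-1.24), and in K2-KO fibroblasts, at 73.7 CPM against 131.5 CPM in control fibroblasts. Rgs1, which dampens chemokine responses of lymphocytes, was at 572 CPM in K2-KO T cells and 470.0 CPM in control T cells. In T cells 0 of 12 of this group were at least 1.5-fold higher and 2 lower (8.95% and 9.21% of all genes), and in tumour cells 2 of 12 were higher and 1 lower (19.3% and 6.12%). In fibroblasts 3 of 9 were higher and 1 lower (14.1% and 6.95%), and in endothelial cells 3 of 9 were higher and 2 lower (16.2% and 21.7%).

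Of the factors reported to act on Cxcr4, Cebpb, an inflammatory transcription factor, was lower in the K2-KO library in 7 of 8 gates. It was at 98.5 CPM in K2-KO tumour cells and 417 CPM in control tumour cells (-2.08, -2.11 to -2.05), at 432 CPM in K2-KO macrophages and 680.2 CPM in control macrophages, and at 1883 CPM in K2-KO neutrophils and 3589 CPM in control neutrophils. In endothelial cells it was higher in the K2-KO library, at 194 CPM against 79.2 CPM in the control. Klf2, a factor of resting and recirculating T cells, was at 498 CPM in K2-KO T cells and 268 CPM in control T cells (0.89, 0.79 to 1.00). The T cell values of Klf2, Cxcr3, Jak2, Rgs16 and the other listed genes are of the whole gate and were not split by subset. The part of the differing T cell mix in them was not tested. Hif1a, through which hypoxia raises Cxcr4 in many cells, was at 746 CPM in K2-KO T cells and 637 CPM in control T cells. Foxo1, reported to raise Cxcr4 in lymphocytes, was at 286 CPM in K2-KO NK cells and 173 CPM in control NK cells (0.72).

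Over the whole list, 7 of 32 measured genes passed 1.5-fold upwards and 3 downwards in fibroblasts, where 14.1% and 6.95% of all genes did so (median log2 ratio 0.09, against 0.07 over all genes). In tumour cells it was 7 of 42 upwards and 3 downwards, against 19.3% and 6.12% of all genes (0.12, against 0.13). In T cells 6 of 41 were higher and 5 lower, against 8.95% and 9.21% (-0.04, against -0.02). In NK cells 5 of 39 were higher and 1 lower, against 15.5% and 6.62% (0.06, against 0.04). In macrophages 2 of 40 were higher and 2 lower, against 10.4% and 3.7% (0.02, against 0.02). In neutrophils 9 of 33 were higher and 3 lower, against 31.9% and 14.7% (0.24, against 0.24). In plasmacytoid dendritic cells 4 of 35 were higher and 7 lower, against 12.8% and 16.4% (-0.06, against -0.02). In endothelial cells 13 of 32 were higher and 6 lower, against 16.2% and 21.7% of all genes (0.25, against -0.08). That gate held 34 K2-KO and 49 control cells, and its 6 macrophage markers summed to 390.3 and 85.5 CPM. Of these sums, 359 CPM in the K2-KO library and 68.6 CPM in the control were Apoe alone. The part of macrophage RNA in the endothelial values of this list and its groups was not tested.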

How the data were processed

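Per the submitters' processing notes, the authors used Cell Ranger 2.1.1 with mm10, whereas version 6.0.1 of it is written in the header of the matrix. The deposited matrix holds whole UMI counts for 32285 genes and 15288 barcodes, 180774106 UMIs in the K2-KO library and 214163620 in the control. Cell calling had been applied before deposit, with settings not given in the sources used here. Barcodes with at least 500 UMIs, 200 genes and at most 20% mitochondrial UMIs were kept, and doublets called by Scrublet in scanpy 1.11.5 (seed 0) were removed: 201 (2.89%) and 217 (2.80%). UMIs were summed per gate and library and divided by all UMIs there (CPM). Intervals are Poisson for CPM, Clopper-Pearson for shares and conditional binomial for ratios, all 95%; those at 0 use 3 counts. The calculation of ratios and intervals was checked on simulated Poisson counts. A gene was measured in a gate with at least 20 UMIs over both libraries.

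The members, gates, subsets and gene lists were chosen with earlier results of these data known. Genes named are the members, gate and subset genes, the 5 genes most like each member (at least 100 UMIs over gated cells; 1 is not reported here), and, from each pathway group, members among the 2 highest and 2 lowest ratios in a gate, plus Mif, Cd74, Dpp4, Adm, Rgs1 and Rgs2. Names of further genes, and the choice among them, followed after values were seen. Gene positions are from GENCODE, promoters from RefSeq (3 of 3 matched). Scripts ran in Python 3.11.15 with matplotlib 3.10.9, pandas 2.3.3, scipy 1.17.1, numpy 2.4.6 and anndata 0.12.19.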

Additional observations from a re-analysis of the deposited data

Results flagged for a closer look

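Cxcl12 went opposite ways in different gates: the log2 ratio of the fibroblast gate (1.39) exceeded that of the endothelial gate (-0.99) by 2.38. The ratio of the tumour gate (1.71, on 28 K2-KO and 11 control UMIs) exceeded that of the endothelial gate by 2.69. Ackr3 did so too: the ratio of the fibroblast gate (0.97) exceeded that of the tumour gate (-0.43) by 1.39 and that of the macrophage gate (-0.27) by 1.24. With 1 library per group these differences between gates were not tested.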

How the results depend on the processing

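No paired analysis was possible because each group has 1 library, so leaving out a replicate was not possible either. Of 114 recomputed values, 83 stayed within the interval of the reported value, 31 did not, and 0 changed the sign of a ratio whose interval excluded 0. Shares, and ratios whose interval included 0, could not count as changed in sign. Some of these ratios did change sign. For example, Cxcr4 went from 0.25 to -0.19 in tumour cells without normal gland cells. In neutrophils it went from -0.05 to 0.29 with every gate passed. The thinned Cxcl12 ratio of the tumour gate had 0 UMIs in a library and gives no value. For Cxcl12 in fibroblasts, the ratio was 1.15 with cells entering every gate passed, 1.07 with cells weighted equally, 1.57 without the top cell of each library, 0.98 thinned to 1500 UMIs, 1.93 without the top 5 cells and 0.65 with Acta2 subsets weighted equally. For Ackr3 there, it was 0.60 with gate minima of 1 UMI, 0.18 with every gate passed, 0.33 with cells weighted equally, 0.31 thinned and 0.37 with subsets weighted equally. For Ackr3 in tumour cells it was -0.50 with minima of 1 UMI, -0.36 with minima doubled, -0.52 with median-of-ratios scaling and -0.52 with cells weighted equally. Cxcr4 was at 1.36 in T cells with minima doubled and 0.61 with subsets weighted equally, at 1.33 in tumour cells and 0.46 in neutrophils with minima of 1 UMI, and at -0.15 (every gate passed) and -0.13 (cells weighted equally) in macrophages. The fibroblast share of Cxcl12 UMIs was 42.7% in the K2-KO library and 39.7% in the control with minima of 1 UMI, 74.4% and 50.3% doubled, 84.5% and 67.0% with every gate passed, 69.6% and 39.0% without the top cell, 82.6% in the K2-KO library thinned, and 41.6% in the control with doublets kept. The causes were not tested. The subset-weighted values and the value without 5 cells were chosen after seeing the data, as were 3 others that stayed within the interval: cells with 10 Col1a1 UMIs left out of other gates, Rgs5 cells left out, and Krt8 cells added to the tumour gate. Fibroblast values rest on 77 and 79 cells and endothelial values on 34 and 49, and endothelial values were not recomputed.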
